A study of Canis lupus familiaris with 29 samples.

Results

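Protein-coding genes of the mitochondrial chromosome were followed in adrenal medulla and in its tumors in dogs. The genes were MT-ND1, MT-ND2, MT-ND4, MT-ND5 and MT-ND6 of respiratory complex I, MT-CYB of complex III, MT-CO1, MT-CO2 and MT-CO3 of complex IV, and MT-ATP6 of complex V. They were taken from the count table by gene name, and all 10 were found among its 30951 genes. The mitochondrial chromosome (MT) had 37 genes in the table, of which 13 carried a name.

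RNA was sequenced from 19 pheochromocytomas and paragangliomas (PPGLs), tumors of the catecholamine-producing chromaffin cells inside and outside the adrenal medulla, and from the normal adrenal medulla (NAM) of 10 healthy dogs. The authors had left out 2 outlying tumors and had divided the others, by a principal component analysis of these same samples, into PPGL group 1, with 7 tumors, and PPGL group 2, with 12. Libraries were made with a stranded mRNA kit, and the deposited values were reads counted over the exons of each gene on CanFam3.1. NAMs were snap frozen while tumors came from several clinics, snap frozen or in RNAlater, so tissue and sampling cannot be told apart. Tumors were taken at surgery or after euthanasia, and the sample labels gave no age, breed or earlier treatment of the dogs, so a part of treatment in the levels was not tested.

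Mammalian mitochondria keep a small circular genome that encodes ribosomal RNAs, transfer RNAs and core subunits of complexes I, III, IV and V, while the other subunits, and the whole of complex II, are encoded in the nucleus. Both strands are transcribed into long precursors that are then processed into single RNAs, and MT-ND6 is the only one of the protein-coding genes read from the opposite strand. Complexes I, III and IV pass electrons to oxygen and pump protons, and complex V uses the proton gradient to make ATP; inherited loss of complex II subunits is known as a cause of PPGL in people.

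Total counts per sample ran from 19258054 to 35918182 in NAMs, from 18493540 to 31919833 in group 1 and from 18208718 to 24569667 in group 2. Every member was well covered, and the lowest count of any member was 115 reads of MT-ND6 in group 2. The highest was 1764595 reads of MT-CO1 in group 1.

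**Figure D1:**
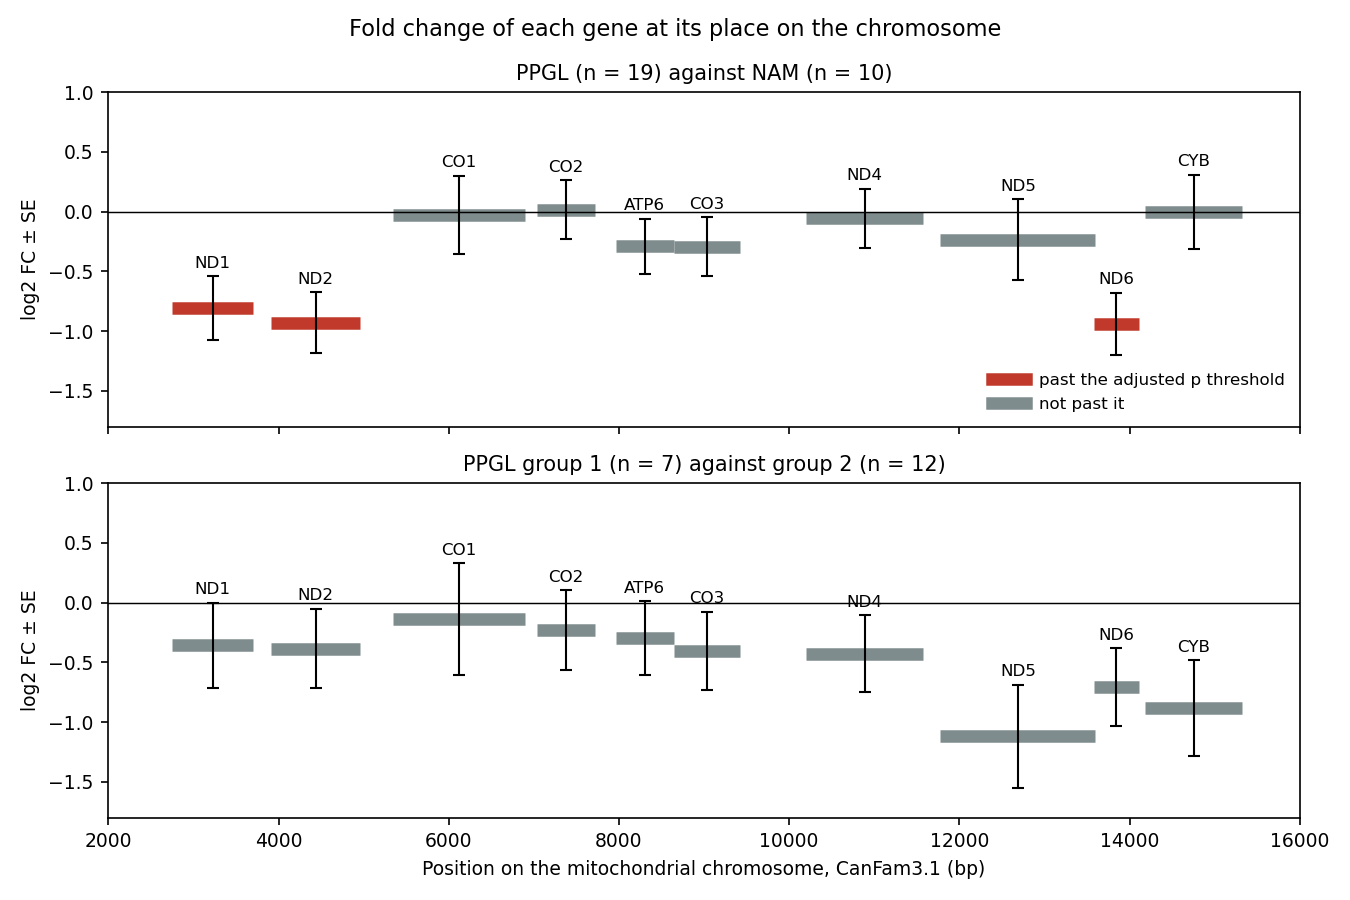
Log2 fold change with its standard error (vertical axis) of each member, drawn as a bar at its position in bases on the mitochondrial chromosome of CanFam3.1 (horizontal axis), for PPGLs against NAMs above and PPGL group 1 against group 2 under it, in red where past the adjusted p threshold. MT-ND1, MT-ND2 and MT-ND6, at -0.81, -0.93 and -0.94, are red in the upper panel, and no member is red in the lower one.

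The members stood along MT from MT-ND1 at 2747 to 3703 to MT-CYB at 14183 to 15322. MT-ND6, at 13582 to 14109, was annotated on the minus strand and overlapped the end of MT-ND5, at 11778 to 13598 on the plus strand. MT-ATP6 began at 7964, inside MT-ATP8, which ended at 8006, and MT-ND4 began at 10201, inside ND4L, which ended at 10207. How the counting treated strand, overlapping genes and reads that also match nuclear copies of mitochondrial DNA is not stated by the authors.

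Together the members took up a large share of the reads in every sample. In NAMs they held 8.70% ± 2.56 (SD, n = 10) of all counts, from 4.19% through a median of 9.10% to 12.8%. In group 1 they held 7.19% ± 3.50 (SD, n = 7), with a lowest value of 3.59%, a median of 6.08% and a highest of 12.1%. In group 2 they held 8.56% ± 3.55 (SD, n = 12), with a lowest value of 2.39%, a median of 8.70% and a highest of 14.6%. The groups overlapped almost completely: 1 of 19 PPGLs lay above all NAMs and 2 lay below all NAMs. The lowest share of all, 2.39% in group 2 replicate 12, had a 95% Wilson interval of 2.385% to 2.398%, which covers counting error only, so depth did not limit the comparison.

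PPGLs held 8.06% ± 3.50 (SD, n = 19), which was 0.644 percentage points below NAMs and less than the spread between samples. Group 1 lay 1.37 points below group 2, 1.51 below NAMs, and group 2 lay 0.141 below NAMs, all under the SD of either group. Single samples moved these differences: with 1 left out they ran from -2.19 to -0.766 points between the PPGL groups, from -2.33 to -0.906 for group 1 against NAMs, and from -0.688 to 0.420, a change of sign, for group 2 against NAMs. Permutation tests of this sum were run, but no p is given, since the members were chosen with earlier results known. The p values of single members given below share this limit. A lower level can come from fewer cells of a type or from less RNA per cell, and in bulk samples these cannot be told apart.

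**Figure D2:**
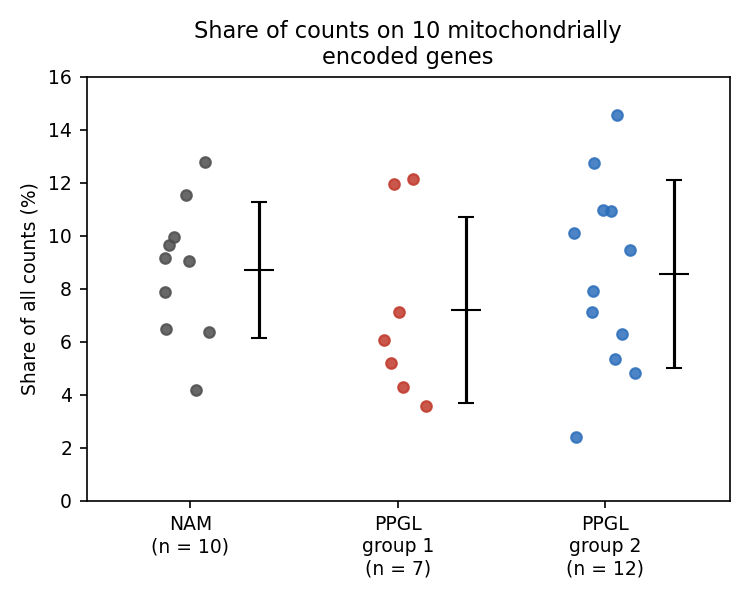
Share of each sample's counts on the 10 members in percent (vertical axis) for NAMs and the PPGL groups, with 1 point per sample and the mean with SD. The groups overlap, with NAM between 4.19% and 12.8%, group 1 between 3.59% and 12.1% and group 2 between 2.39% and 14.6%.

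The members held most of the reads of their chromosome, from 84.7% through a median of 91.3% to 93.0% of the MT counts of a sample. The other 3 named genes, MT-ATP8 of complex V and MT-ND3 and ND4L of complex I, held 5.63% to 11.1%, with a median of 7.18%. The unnamed genes held 0.746% to 5.45%, with a median of 1.48%. The other named genes gave log2 fold changes (log2 FCs) near 0 between PPGLs and NAMs, at -0.27 for MT-ATP8, 0.06 for MT-ND3 and -0.11 for ND4L, and none passed the test described next.

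Differences were tested gene by gene with edgeR's quasi-likelihood (QL) test on counts scaled by TMM, a scaling that sets aside genes with extreme ratios, and p was adjusted by Benjamini-Hochberg over all genes tested. A gene is called where the adjusted p was below 0.05 against NAMs, or below 0.1 between the PPGL groups. Between PPGLs and NAMs 3 of 10 members were called, all lower in PPGLs and all of complex I: MT-ND1, MT-ND2 and MT-ND6. Of 14766 genes tested, 37.5% were called in either direction and 15.2% were called lower, so a call as such was common. The members' median log2 FC was -0.26 beside 0.13 over all genes tested. No member had a log2 FC under -3 or over 3, a fold threshold that was also applied. The directions of MT-ND1, MT-ND2 and MT-ND6 held under TMM, DESeq2's size factors, plain library size and nuclear genes as the library. Those of MT-CO1, MT-CO2, MT-ND4 and MT-CYB, all near 0, changed with at least 1 of these scalings. With a score of adrenal cortex markers as a covariate no member was called, where 14.8% of all genes tested were. With the sample number as a block MT-ND1 was not called, where 31.5% of all genes tested were. The sample numbers count different animals, so nothing is concluded from this block. Of 10 cortex markers tested 9 fell in this comparison, with a median log2 FC of -3.19.

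MT-ND1 encodes the complex I subunit at the junction of its membrane arm and peripheral arm, near where ubiquinone is bound. Its TMM-normalized CPM (counts scaled to a common library size) were 2490.5 at the lowest, 4927 at the median and 8152 at the highest in NAMs. In group 1 these were 1455, 1856 and 6384, and in group 2 they were 1149, 2733 and 6169. The ranges overlapped, but 9 of 19 PPGLs lay below every NAM and 15 of 19 below the NAM median. MT-ND1 fell in PPGLs, with a log2 FC of -0.81 (SE 0.27) and an adjusted p of 0.0177 in the edgeR QL test. It was not called with the sample number as a block, a fit from which nothing is concluded. With the cortex score as a covariate it was not called either, and its log2 FC was smaller in size.

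MT-ND2 encodes a proton-pumping subunit of the membrane arm. NAMs had 2369 TMM-normalized CPM at the lowest, 4597 at the median and 7931 at the highest. Group 1 had 1283, 1707 and 4720.5, and group 2 had 1184, 2351 and 5182. Most tumors were low: 11 of 19 PPGLs lay below every NAM and 15 of 19 below the NAM median. MT-ND2 fell in PPGLs, with a log2 FC of -0.93 (SE 0.25) and an adjusted p of 0.00502 in the edgeR QL test. That call was lost, and the log2 FC was smaller in size, with the cortex score as a covariate.

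MT-ND6, the membrane arm subunit encoded on the other strand, had by far the lowest counted level of the members. How well the mRNA kit captured the RNA of each member was not tested. Its level was 29.1 TMM-normalized CPM at the lowest, 44.0 at the median and 103 at the highest in NAMs. It was 15.6, 18.1 and 29.6 in group 1, and 6.49, 34.0 and 71.3 in group 2. All 7 group 1 tumors lay below the NAM median and 5 of them below every NAM, whereas 4 of 12 group 2 tumors lay below every NAM. MT-ND6 fell in PPGLs, with a log2 FC of -0.94 (SE 0.26) and an adjusted p of 0.00563 in the edgeR QL test. Its call was also lost, with a log2 FC smaller in size, when the cortex score was a covariate.

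MT-ND4 and MT-ND5, also proton-pumping subunits of the membrane arm, were not called between PPGLs and NAMs. For MT-ND4 the medians were 7598 TMM-normalized CPM in NAMs, 5926 in group 1 and 7959.5 in group 2, with a log2 FC of -0.06 (SE 0.25) between PPGLs and NAMs. For MT-ND5, NAMs ran from 1826 through a median of 2912 to 6476 TMM-normalized CPM, group 1 from 615 through 996 to 2836, and group 2 from 463 through 3388 to 6733. MT-ND5 was low in group 1, and in group 2 only replicate 12 lay below every NAM: all 7 group 1 tumors lay below the medians of NAMs and of group 2, and 4 of 7 lay below every NAM. Pooled over PPGLs its log2 FC was -0.24 (SE 0.34), with an adjusted p of 0.613 in the edgeR QL test.

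MT-CYB encodes cytochrome b, the subunit of complex III that oxidizes ubiquinol. Its level ran from 2247 through a median of 4042 to 7347 TMM-normalized CPM in NAMs, from 1715 through 2720 to 4554 in group 1, and from 996 through 4395 to 13582 in group 2. The group 2 range enclosed the other ranges. The log2 FC between PPGLs and NAMs was -0.00 (SE 0.31), with an adjusted p of 0.995 in the edgeR QL test.

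MT-CO1, MT-CO2 and MT-CO3 encode the catalytic core of cytochrome c oxidase, in which MT-CO1 and MT-CO2 hold the redox centers. The NAM median of MT-CO1 was 27015 TMM-normalized CPM, within 10965 to 37893. Group 1 had a median of 13787 within 8747 to 52626, and group 2 had 28838 within 3865 to 51074. PPGLs spread wider than NAMs on both sides, with 4 of 19 below every NAM and 3 of 19 above. For MT-CO2 the medians were 11200.5 TMM-normalized CPM in NAMs, 8764 in group 1 and 11208 in group 2, and for MT-CO3 they were 14500, 8188 and 11648. None of these genes was called, with log2 FCs between PPGLs and NAMs of -0.03 for MT-CO1, 0.01 for MT-CO2 and -0.29 for MT-CO3.

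MT-ATP6 encodes the subunit of ATP synthase that forms the proton channel with the c-ring. NAMs ran from 5238 through a median of 12866.5 to 17520 TMM-normalized CPM, group 1 from 5389 through 8090 to 12524, and group 2 from 5072 through 9738 to 21677. Although 15 of 19 PPGLs lay below the NAM median, the ranges overlapped almost entirely. The log2 FC was -0.29 (SE 0.23), with an adjusted p of 0.336 in the edgeR QL test.

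**Figure D3:**
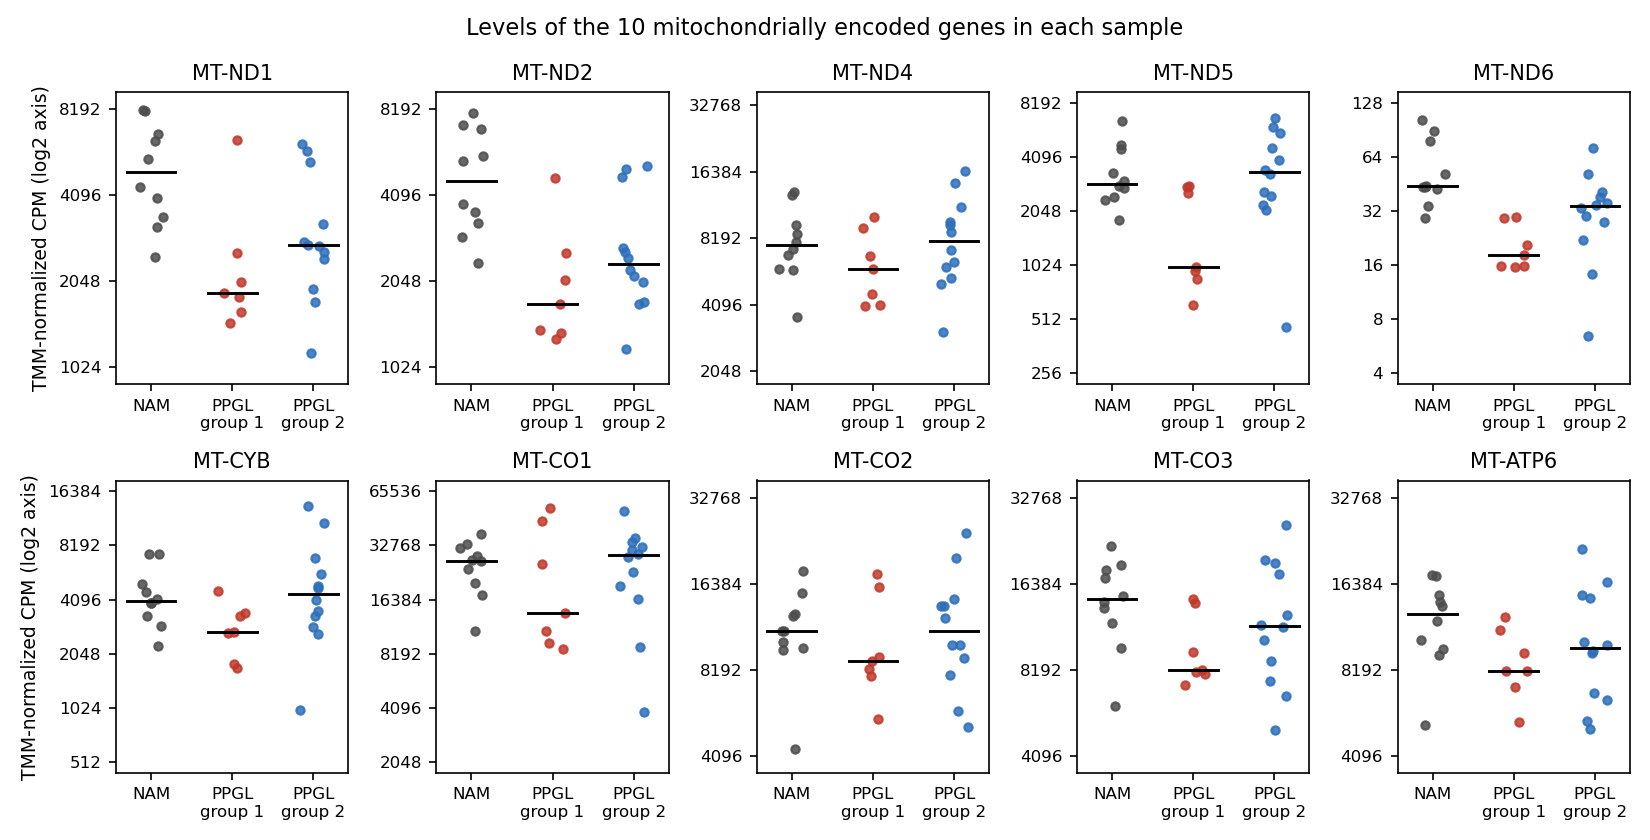
TMM-normalized CPM (log2 axis) of each member in NAMs and each PPGL group, with 1 point per sample and the group median as a line. MT-ND2 lies below every NAM in 11 of 19 PPGLs, and MT-CO1 runs from 3865 to 52626 in PPGLs against 10965 to 37893 in NAMs.

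Each tumor group was also set against the NAMs, which both comparisons share. Against NAMs, 4 members fell in group 1 where 14.7% of 14587 genes tested were called lower, and 1 fell in group 2 where 18.0% of 14428 were called lower. The members' median log2 FC was -0.58 in group 1, beside 0.13 over all genes, and -0.06 in group 2, beside 0.09. MT-ND2 fell in both, by a log2 FC of -1.18 (SE 0.33, adjusted p 0.0104, edgeR QL test) in group 1 and -0.79 (SE 0.27, adjusted p 0.0223) in group 2. MT-ND1 fell in group 1 with -1.03 (SE 0.34, adjusted p 0.0257, edgeR QL test) and gave -0.68 (SE 0.28, adjusted p 0.0523) in group 2. MT-ND6 fell in group 1 with the largest change of any member, -1.42 (SE 0.27, adjusted p 0.000630, edgeR QL test), and gave -0.71 (SE 0.29, adjusted p 0.0541) in group 2. MT-ND5 fell in group 1 with -1.03 (SE 0.36, adjusted p 0.0320, edgeR QL test) and gave 0.09 in group 2. The group 2 values of MT-ND1 and MT-ND6 sat next to the threshold, and both were called there with DESeq2's size factors. Without group 1 replicate 3, an alternative chosen after seeing the data, 5 members were called in group 1, the added one being MT-CYB at -0.76 (adjusted p 0.0439, edgeR QL test). The share of all genes called in that fit was not kept, so the added call is not read as a result about the members. With a score of adrenal cortex markers as a covariate no member was called in either group, where 0.384% of all genes tested were called in group 1 and 7.09% in group 2, and MT-ND1 and MT-ND2 turned to 0.04 and 0.39 in group 1 and MT-ND1 to 0.07 in group 2. With the sample number as a block 1 member, MT-ND6, was called in group 1, where 15.4% of all genes were called, and 0 in group 2, where 37.1% were. Here too nothing is concluded from the block.

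The direct comparison of group 1 with group 2 asked whether the tumor groups differed from each other. The edgeR QL test called 0 of 10 members there, where 6.92% of 14666 genes tested were called. In that test 3 members had an unadjusted p below 0.05, as did 2845 of all 14666 genes. DESeq2's Wald test called 1 member, a fit with all 3 groups called 1 and the Mann-Whitney U-test called 0. Over all genes the Wald test called 12.2%, the fit with all 3 groups 16.9% and the Mann-Whitney U-test 2.63%, so 1 of 10 is no more than the general rate of either test that called 1. All 10 log2 FCs were negative, here and under each other scaling, with a median of -0.39 beside 0.04 over all genes tested, but MT-CO1 reached 0.02 with 1 sample left out, and MT-ND1 and MT-ND2 gave 0.28 and 0.26 with a score of adrenal cortex markers as a covariate. The members with an unadjusted p below 0.05 were MT-ND5 at -1.12 (SE 0.43, adjusted p 0.155, edgeR QL test), MT-CYB at -0.88 (SE 0.40, adjusted p 0.230) and MT-ND6 at -0.71 (SE 0.32, adjusted p 0.233). The other 7 log2 FCs lay between -0.43 for MT-ND4 and -0.14 for MT-CO1, and single samples moved them. Without group 1 replicate 3, MT-ND1 went from -0.36 to -0.77 and MT-ND2 from -0.38 to -0.69, with adjusted p of 0.215 and 0.251 (edgeR QL test). Without group 1 replicate 5, MT-CO1 was at -0.46 and MT-CO2 at -0.40. Group 2 replicate 12, the sample with the lowest share of member counts, mattered here: without it 2 members were called, MT-ND5 at -1.23 (adjusted p 0.0769, edgeR QL test) and MT-ND6 at -0.81 (adjusted p 0.0967), where 5.80% of all genes tested were called. Since the groups were drawn from the expression of these same samples, a p between them describes the division that was made.

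Compared per kilobase of exon, the members fell into the same broad tiers in the 3 groups. In NAMs the mean TMM-normalized CPM per kilobase was 18731 for MT-CO3, 18260 for MT-ATP6, 16821 for MT-CO2 and 16722 for MT-CO1, and these 4 did not separate beyond their spread. MT-ND4 followed at 5905 per kilobase, below MT-CO1 in 10 of 10 NAMs. Then came MT-ND1 at 5453, MT-ND2 at 4707, MT-CYB at 3916, MT-ND5 at 1884 and, at the bottom in every NAM, MT-ND6 at 106. Among the lower members the order between neighbors was kept in 7 to 10 of 10 NAMs.

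The top tier stayed on top in the tumors, with mean levels per kilobase of 12618 to 15345 TMM-normalized CPM in group 1 and 15986 to 17909 in group 2. Below it, MT-ND4 was at 4635 per kilobase in group 1 and 6247 in group 2. By its mean MT-CYB, which stood under MT-ND1 and MT-ND2 in NAMs, stood above both in group 2. It was at 4686 per kilobase against 3376 for MT-ND1 and 2695 for MT-ND2. MT-CYB lay above MT-ND1 in 8 of 12 group 2 tumors, and replicates 7 and 2 were the highest, at 11914 and 9582. In group 1 the 3 lay close together, at 2641 for MT-ND1, 2536 for MT-CYB and 2063 for MT-ND2. MT-ND5 and MT-ND6 remained the lowest, at 913 and 39.2 per kilobase in group 1 and 1990 and 64.1 in group 2.

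The make-up of the member reads, which does not depend on the scaling between mitochondrial and nuclear RNA, is given as a description. MT-ND1 made up 5.73% ± 1.03 (SD, n = 10) of the member counts in NAMs, 3.78% ± 1.41 (SD, n = 7) in group 1 and 3.87% ± 1.02 (SD, n = 12) in group 2. All 19 PPGLs lay below the NAM median, and 12 of 19 lay below every NAM. MT-ND2 moved alongside it, from a mean of 5.36% ± 0.900 (SD, n = 10) among NAMs to 3.37% ± 1.41 (SD, n = 7) in group 1 and 3.44% ± 1.03 (SD, n = 12) in group 2, with 12 of 19 PPGLs below every NAM. The NAM mean of MT-ND6 was 0.0626% ± 0.0186 (SD, n = 10), and its PPGL mean was 0.0385% ± 0.0155 (SD, n = 19).

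MT-ND5 differed in make-up between the tumor groups, at 2.36% ± 0.928 (SD, n = 7) of member counts in group 1 and 4.12% ± 1.13 (SD, n = 12) in group 2, against 3.78% ± 0.664 (SD, n = 10) in NAMs. Of the group 1 tumors, 7 of 7 lay below the group 2 median and 6 of 7 below every NAM. MT-CO2 took a larger part in tumors, at 14.9% ± 2.27 (SD, n = 19) against 12.7% ± 1.20 (SD, n = 10), and 17 of 19 PPGLs lay above the NAM median. MT-CO1 was the largest component in each group by its mean, at 28.6% ± 1.86 (SD, n = 10) in NAMs, 31.2% ± 10.4 (SD, n = 7) in group 1 and 29.6% ± 7.59 (SD, n = 12) in group 2. PPGLs spread wider than NAMs: 13 of 19 PPGLs fell outside the NAM range of 26.1% to 32.0%, 8 above it and 5 below it.

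**Figure D4:**
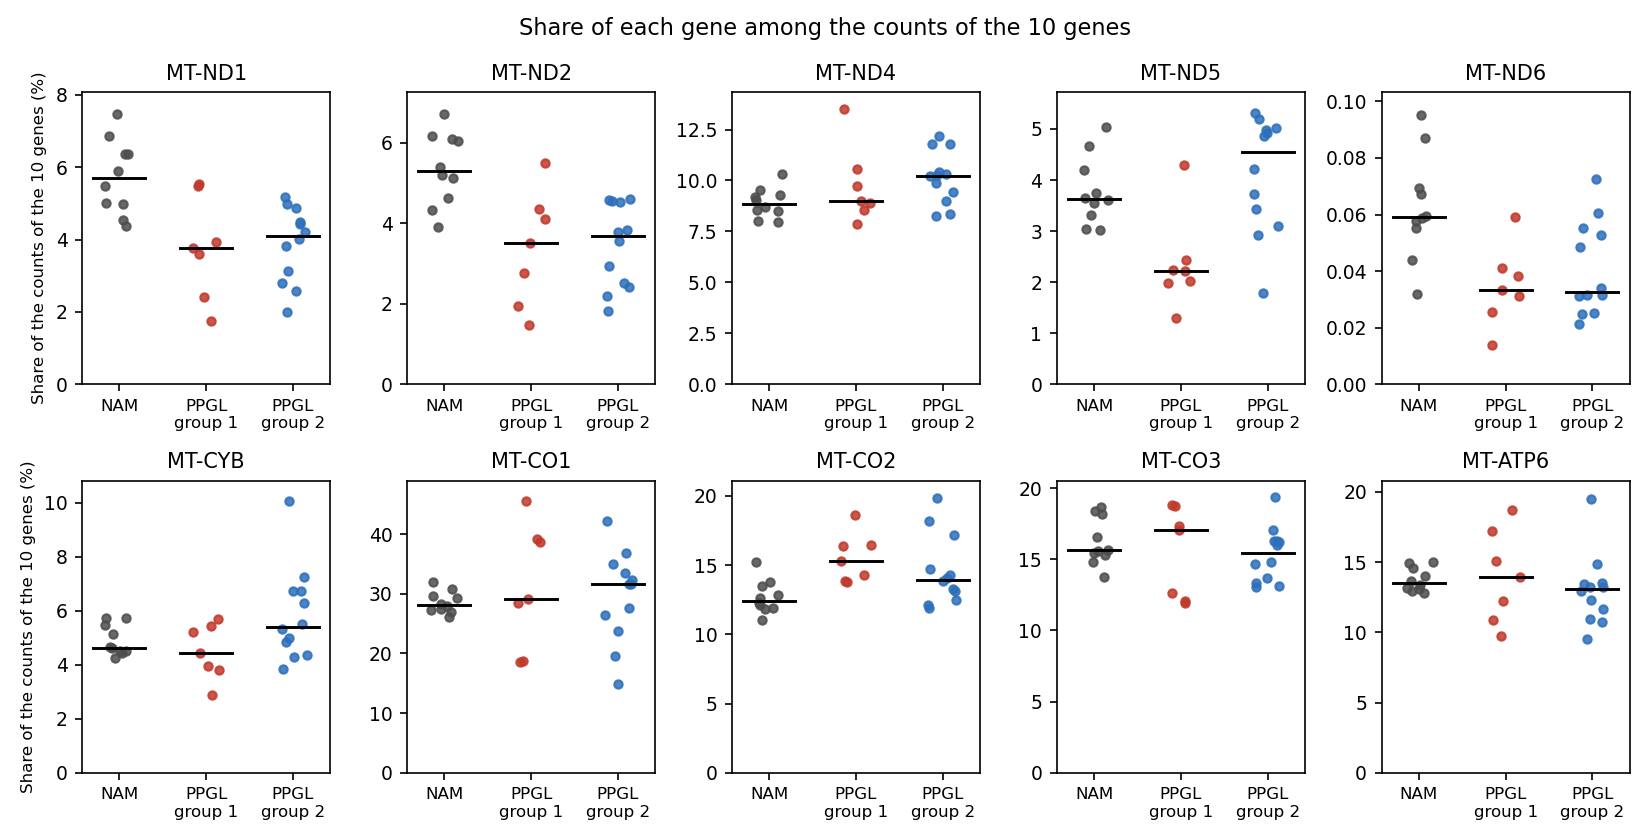
Percent of the member counts on each member (vertical axis, from 0) in NAMs and each PPGL group, with 1 point per sample and the group median as a line. All 19 PPGLs lie below the NAM median for MT-ND1, and MT-CO1 runs from 14.9% to 45.6% in PPGLs against 26.1% to 32.0% in NAMs.

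The widest departures came from single tumors. MT-CO1 reached 45.6% of member counts at its highest in group 1. In group 2 replicate 12 it made up 14.9%, where MT-CO2 made up 19.9% and MT-ATP6 19.5%. MT-CYB made up 10.1% in group 2 replicate 7, against a mean of 4.91% ± 0.557 (SD, n = 10) in NAMs.

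Across the 29 samples, with each group's mean removed from log2 TMM-normalized CPM, the members moved together to different degrees. The tightest pairs were MT-ND1 with MT-ND2 (r = 0.98), MT-ATP6 with MT-CO3 (r = 0.97) and MT-CO2 with MT-ND4 (r = 0.95). MT-ND1 and MT-ND2 are neighbors on the chromosome, and so are MT-ATP6 and MT-CO3. MT-ND6 followed the others least, with r from 0.56 to 0.77. These coefficients are descriptive, since members share depth and scaling within a sample.

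Adrenal cortex lies against the medulla, and its steroid-producing cells are rich in mitochondria, so a list of cortical markers was read in the same samples. Of 11 markers 10 were found by gene name. CYP11B2, which the authors list for these samples under an identifier that carries no gene name in the table, was not part of the sum or the score. Their summed TMM-normalized CPM was 14127 at the lowest, 37402.5 at the median and 69102 at the highest in NAMs, 92.1, 275 and 1165 in group 1, and 255, 3682 and 34319 in group 2. Group 1 lay below every NAM, and MC2R and MRAP, the corticotropin receptor and its accessory protein, had a median of 0 there. The most abundant marker was CYP17A1 in 9 of 10 NAMs and 11 of 12 group 2 tumors, and STAR in 5 of 7 group 1 tumors. Of the 10 markers 9 fell in PPGLs, with a median log2 FC of -3.19, and 9 were called lower in group 1 than in group 2, with a median of -6.54.

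Members and cortical markers moved together in NAMs. Over the 10 NAMs the correlation of the mean log2 level of these markers, the cortical score, with the log2 level of a member had a Pearson r between 0.69 and 0.92, highest for MT-ND1 (r = 0.92, rho = 0.89, and r = 0.91 without the 2 samples farthest from the median score). For MT-ND2 it was r = 0.89 (rho = 0.89, and 0.88 without those 2), and for MT-ND6 r = 0.72 (rho = 0.77, and 0.79 without those 2). Without those 2 samples the range over members was 0.44 to 0.91, and the relation weakened most for MT-CO3, from 0.69 to 0.44, and for MT-CO2, from 0.72 to 0.57. In tumors r lay between -0.20 and 0.39 over the 12 group 2 samples and between -0.77 and -0.11 over the 7 group 1 samples. Without the 2 farthest samples it lay between -0.05 and 0.27 in group 2 and between -0.53 and 0.16 in group 1, so the group 1 values rest in part on those samples. For MT-ND1 itself it was 0.39 (rho 0.31) in group 2 and -0.23 (rho -0.39) in group 1. These are 30 relations, given without p as a description.

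With the cortical score as a covariate, no member was called between PPGLs and NAMs by the edgeR QL test, although calls over all genes also went down, from 37.5% to 14.8% of those tested. The log2 FC was then -0.35 for MT-ND1 (adjusted p 0.549), -0.44 for MT-ND2 (adjusted p 0.412) and -0.57 for MT-ND6 (adjusted p 0.327), and that of MT-ND5 turned to 0.41. The score itself separated the tissues, with a mean of 10.4 in NAMs, 1.54 in group 1 and 7.07 in group 2, so the part of cortical tissue in the lower levels cannot be told apart from that of the tumor. Of the tumors, 4 lay above the NAM medians of both MT-ND1 and MT-ND2, and their scores differed widely. Group 2 replicate 10, with 5853 TMM-normalized CPM of MT-ND1, had a score of 10.3, inside the NAM range of 9.31 to 11.5. The other 3 had scores below that range: 8.90 in group 2 replicate 2, 7.29 in group 2 replicate 4 and 0.98 in group 1 replicate 3, with 6169, 5360 and 6384 TMM-normalized CPM of MT-ND1.

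Other cell markers were read for the same comparison of PPGLs with NAMs, and their part in the members' levels was not tested. Over all 14766 genes tested there, 3295 were called higher and 2246 lower, so a called marker as such was common. Of 12 chromaffin cell markers tested, 3 rose and 1 fell, and their mean log2 level was 9.32 ± 0.611 (SD, n = 10) in NAMs, 8.36 ± 1.71 (SD, n = 7) in group 1 and 9.49 ± 0.746 (SD, n = 12) in group 2. Of 10 erythroid markers listed 6 were found and 3 passed the count filter, which they could pass only through tumors, so their calls are not read here. Of 12 leukocyte markers 5 rose and 1 fell, and of 9 fibroblast and pericyte markers 6 rose. Of 9 endothelial markers 5 fell, of 7 Schwann and sustentacular markers and 3 adipocyte markers 0 were called, the 1 tested marker of hepatocytes and kidney fell, and of 3 striated muscle markers 1 fell.

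The nuclear genes that make and maintain mitochondrial transcripts did not move as a block between PPGLs and NAMs. Of 19 genes tested for mitochondrial transcription and DNA maintenance 7 rose and 2 fell, with a median log2 FC of 0.02 beside 0.13 over all genes. For this list and those that follow, 3295 of all 14766 genes tested were called higher and 2246 lower. TFAM, which packages mitochondrial DNA and starts its transcription, was at -0.11 (SE 0.12, adjusted p 0.513, edgeR QL test), and POLRMT, the mitochondrial RNA polymerase, was at -0.34 (SE 0.14, adjusted p 0.0508). LONP1, a matrix protease, fell with a log2 FC of -2.30 (adjusted p 1.62e-07, edgeR QL test), and DNA2, a nuclease and helicase, rose by 2.17 (adjusted p 0.000132). TFB1M and MTERF2 rose by 0.77 and 0.69, and TOP3A, a topoisomerase, was at -0.45.

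For RNA processing and stability 18 genes were tested, of which 3 rose and 3 fell, with a median log2 FC of -0.11. LRPPRC, which stabilizes mitochondrial messenger RNAs, fell by a log2 FC of 0.43 (SE 0.11, adjusted p 0.00264, edgeR QL test). FASTKD3 fell by 0.58 and REXO2, an exonuclease, by 0.55, while ANGEL2, TRMT10C and FASTKD1 rose by 0.49, 0.48 and 0.45. For mitochondrial translation, 2 of 13 rose and 4 fell, with a median of 0.02; the largest falls were in the ribosome recycling factor GFM2 at -0.95 and the elongation factors TUFM and GFM1 at -0.88 and -0.63, and the initiation factor MTIF2 rose by 0.84. Of 9 regulators of mitochondrial biogenesis tested 1 rose, GABPA at 0.44, and PPARGC1A, a transcriptional coactivator of biogenesis, was at -0.14 (SE 0.56, adjusted p 0.865, edgeR QL test).

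Nuclear partners of the members were also counted by complex between PPGLs and NAMs. Over all genes tested 15.2% were called lower and 37.5% in either direction. In the same comparison 9 of 10 adrenal cortex markers fell, and the median log2 FC of the 10 was -3.19. The part of cortical tissue in the values of the nuclear mitochondrial genes was not tested. In complex I, where 3 of the 5 member subunits fell, 9 of 27 nuclear subunits tested fell and 2 rose, with a median log2 FC of -0.15, and NDUFS8, an iron-sulfur subunit, fell most at -1.01 (SE 0.19, adjusted p 0.000134, edgeR QL test). In complex III 4 of 6 fell, with a median of -0.49, led by CYC1 at -0.87, which encodes cytochrome c1. In complex IV 2 of 7 rose and 1 fell, with a median of -0.11; COX4I2, an isoform of subunit 4 known from hypoxic tissue, rose by 2.52 and COX4I1, the usual isoform, fell by 0.56. In complex V 1 of 10 rose and 2 fell, with a median of -0.04.

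Complex II has no mitochondrially encoded subunit, and 2 of its 3 nuclear subunits tested fell, SDHC at -0.84 (adjusted p 4e-05, edgeR QL test) and SDHA at -0.72 (adjusted p 0.00025). Of the 17 genes tested from a list of 21 for mitochondrial mass 4 fell and 1 rose, with a median log2 FC of -0.13; SLC25A3, the phosphate carrier, fell most at -1.40, and VDAC3, an outer membrane channel, rose by 0.54. Between group 1 and group 2 the only gene called from these nuclear lists was DNA2, higher in group 1 by a log2 FC of 1.24 (SE 0.41, adjusted p 0.094, edgeR QL test).

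Over the 29 samples, each nuclear gene's deviations from its group means were compared with those of the mean of the 10 members, on log2 TMM-normalized CPM. Over 15175 nuclear genes the median r was 0.02, with 5% to 95% of genes between -0.43 and 0.43. The named genes most like the members were NUBP2 (r = 0.75), PDZK1IP1 (r = 0.75), AURKAIP1 (r = 0.74), NDUFB10 (r = 0.72) and FAHD1 (r = 0.70). The named genes least like them were KLHL21 (r = -0.81), DYNC1LI2 (r = -0.77), FRYL (r = -0.74), WNK3 (r = -0.74) and SMCR8 (r = -0.73). Of the regulators, TFAM had an r of 0.20, POLRMT 0.29, LRPPRC 0.04 and PPARGC1A 0.21 with the members, all inside the central 5% to 95%. The lists of transcription, RNA processing, translation and biogenesis held 19, 18, 13 and 9 genes, of which 5 lay outside it. By construction the lowest 5% and highest 5% of all genes lie outside, so this count is no more than the general share. Named after their values were seen, they were POLG2 at 0.69, FASTK at 0.67, TUFM at 0.50, SLIRP at 0.43 and RRM2B at -0.45. Of the 27 nuclear subunits of complex I most lay inside and none below. Several lay above, among them NDUFS7 at 0.60 and NDUFS8 at 0.52. The genes of a sample share its depth and scaling, so these values are given as a description.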

How the data were processed

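The authors deposited raw read counts over exons per gene, made with FastQC, STAR version 2.4.2a, Picard and HTSeq; the deposited table is labelled as featureCounts output. Counts were taken as deposited. Shares are member counts over all counts of a sample. Counts were filtered with edgeR's filterByExpr (minimum count 10, minimum total 15), scaled by TMM and tested with the edgeR QL test (prior count 0.125), with Benjamini-Hochberg adjustment over all genes tested. Scores and likeness used log2 TMM-normalized CPM, to which a prior count of 2 was added. The software was Python 3.11.15 with scipy 1.17.1, pandas 2.3.3 and matplotlib 3.10.9, and R 4.3.3 with DESeq2 1.42.0, limma 3.58.1 and edgeR 4.0.16.

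All 10 members are named. From each list the called genes with the largest absolute log2 FC are named, up to 3 per direction, plus TFAM, POLRMT, LRPPRC and PPARGC1A; some are given by counts only. For likeness the 5 highest and 5 lowest named nuclear genes are given. The members and lists were chosen with earlier results of these data known. The steps recovered planted changes in simulated counts. There each gene was drawn independently with a common spread, whereas the members moved together, so this checked the running of the steps only. The 2 tumors excluded by the authors were not analysed. Alternatives were other scalings, filters, prior counts and tests, a replicate block, all 3 groups in the fit, the cortical score as a covariate, and samples left out: each in turn for PPGLs against NAMs, for the PPGL groups and for the shares, but only 2 in the tests of group 1 against NAMs and 1 in those of group 2, chosen after seeing the data. Permutation tests of the share and of the make-up of member counts were run, and no p is given for them.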

Additional observations from a re-analysis of the deposited data

Results flagged for a closer look

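Dixon's test of the gap to the nearest sample was run on 54 series of 4 to 10 samples, from NAMs and PPGL group 1. It singled out 5 values, where chance gives about 1 in 20 groups. PPGL group 2 held more than 10 samples, so its tumors were not screened in this way. MT-ND1 was at 6384 TMM-normalized CPM in PPGL group 1 replicate 3, far above the other 6 group 1 tumors. The same sample stood apart for MT-ND2, at 4720.5 TMM-normalized CPM. Its share of member counts was 11.9% and its cortical score was 0.98. Its mean log2 level of chromaffin markers was 7.22, below the group 1 median of 8.91. Group 1 replicates 5 and 7 lay lower still, at 5.91 and 6.91. Without it, an alternative chosen after seeing the data, the log2 FC against NAMs was -1.46 for MT-ND1 and -1.50 for MT-ND2.

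MT-ND5 made up 4.30% of the member counts in PPGL group 1 replicate 2, above the other group 1 tumors. An unnamed gene at positions 6966 to 7033 of MT stood at 180 TMM-normalized CPM in NAM replicate 3, with 4723 counts against 92 in the next highest sample. The same gene was at 0.716 TMM-normalized CPM in PPGL group 1 replicate 5, apart from the rest of its group. Its log2 FC between PPGLs and NAMs was -6.54 (adjusted p 3.05e-05, edgeR QL test), and without NAM replicate 3 it was -2.55 (SE 0.72, adjusted p 0.00722). The reason for these values was not tested.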

How the results depend on the processing

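Of values for single genes under the alternatives, 410 kept direction and side of the threshold, 14 came past it, 12 no longer passed and 24 changed sign. Of counts and shares, 48 stayed within 1.5 times the reported count or within 1 SD of the reported share, which allows a change of sign, and 13 moved. Between PPGLs and NAMs 3 members were called with each sample left out, and 0 with the cortical score in the fit; with the sample number as a block 2 were called, where MT-ND1 had an adjusted p of 0.0613 (edgeR QL test). The sample numbers count different animals, so nothing is concluded from the block. Between the PPGL groups 1 was called by DESeq2's Wald test and 1 with all 3 groups in the fit, and 0 to 2 with a sample left out, the 2 being without PPGL group 2 replicate 12. For group 1 against NAMs 1 was called with the block, where calls over all genes went from 35.8% to 15.4%, and 0 with the cortical score, where only 0.384% of all genes were called, so these counts say little about the members. For group 2 against NAMs 3 were called with DESeq2's size factors (40.6% of all genes), 3 with DESeq2's Wald test (44.5%), 3 with the Mann-Whitney U-test (38.3%), 3 with at least 1 CPM (40.2%), 2 with nuclear genes as the library (40.7%), 2 with all 3 groups in the fit (32.9%), 0 with the block (37.1%) and 0 with the cortical score (7.09%).

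Signs changed mostly near 0. Between PPGLs and NAMs, MT-CO1 was at 0.0498 with library size, 0.0276 with the block and 0.0361 with the cortical score. MT-CO2 was at -0.00748 with DESeq2's size factors and with its Wald test, -0.00294 without a filter and -0.0255 with all 3 groups. MT-ND4 was at 0.0186 with library size, 0.0412 with the block and 0.129 with the cortical score, and MT-ND5 at 0.413 with the last. MT-CYB was at 0.0555, 0.0356 and 0.422 under the same 3, and 0.00164 with at least 1 CPM. With the cortical score MT-ND1 and MT-ND2 were at 0.275 and 0.257 between the PPGL groups and at 0.0441 and 0.391 in group 1 against NAMs, and MT-CO3, MT-ND1 and MT-ATP6 at 0.0936, 0.0674 and 0.0815 in group 2 against NAMs. MT-CO1 was at 0.00503 with library size in group 1 and -0.0131 with at least 1 CPM in group 2. The cause was not tested. With a sample left out, PPGLs against NAMs gave -0.117 to 0.0483 for MT-CO1, -0.0842 to 0.107 for MT-CO2, -0.178 to 0.103 for MT-CYB and -0.149 to 0.0444 for MT-ND4, and the PPGL groups gave -0.462 to 0.0192 for MT-CO1. The share differed by -1.14 to -0.192 points between PPGLs and NAMs, by -2.19 to -0.766 between the PPGL groups, by -2.33 to -0.906 in group 1 against NAMs, with both ends set by group 1 replicates 5 and 6, and by -0.688 to 0.420 in group 2 against NAMs. The lowest count behind any of these members was 115, so counting error is small beside the spread between samples.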

Other observations

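Among unnamed genes of the mitochondrial chromosome, the gene at positions 70 to 1023 gave a log2 FC of -0.25 between PPGLs and NAMs (adjusted p 0.555, edgeR QL test), and that at 1091 to 2670 gave 0.07 (adjusted p 0.862). The gene at positions 5037 to 5105 on the minus strand fell in PPGLs, with a log2 FC of -2.37 (adjusted p 0.0103, edgeR QL test). It held few reads, from 1 to 84 in NAMs, 0 or 1 in group 1 and 0 to 28 in group 2. These genes were chosen after their values were seen.

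Exon length differed between the genes most and least like the members. The 100 named genes with the highest r had a median exon length of 1635 bases and the 100 with the lowest 4606 bases, against 2231 over all. Across 13017 named genes the rank correlation of r with length was -0.25, and genes are not independent replicates.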
